A study of Mus musculus with 6 samples.

Results

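Heterotrimeric G proteins, the adenylyl cyclases they regulate, and the RGS proteins, receptor kinases and arrestins that end the signal were followed in cultured mouse neural stem cells and in their differentiated progeny. Membership was by gene symbol alone and used no measured value: 72 of the 29267 genes in the tables carry a symbol of these families. They comprise 16 G alpha, 5 G beta and 12 G gamma subunits, 10 adenylyl cyclases, 21 RGS genes, 2 arrestins and 6 G protein-coupled receptor kinases (GRKs). RNA sequencing covered neural stem cells of the OG2 strain at passage 8, called NSC here, and cells of the same strain and passage after differentiation, under the label D2. Each state was profiled as an untreated control, with naloxone, which blocks opioid receptors, and with DAMGO, a synthetic peptide that activates the mu receptor, and the series asks about effects of naloxone on proliferation and differentiation. Each of the 6 groups is 1 library; ligand doses and durations, and whether the libraries came from separate cultures, are not stated in the labels. The p-values below therefore measure only the spread between these libraries.

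An activated receptor makes the G alpha subunit exchange GDP for GTP, and alpha and beta-gamma then act on separate effectors. Gs alpha activates the membrane adenylyl cyclases that make cyclic AMP, Gi alpha inhibits several of them, and Gq acts on phospholipase C beta. RGS proteins speed up GTP hydrolysis, GRKs phosphorylate active receptors, and arrestins then uncouple them. Opioid receptors couple to the Gi/o class, which pertussis toxin blocks by modifying a cysteine near the end of the alpha subunit.

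That cysteine separates the Gi/o subunits from the rest, so the last 10 codons are shown for the Gi/o/z subunits that reached 1 TPM in every library and, for comparison, for Gnas and Gnaq, from GENCODE M21 transcripts on GRCm38 (mm10). Capitals mark the codon that is 4th from the end, which is TGT or TGC for the cysteine. The stretches lie in coding exons at chr5:18267022-18267051 (Gnai1, minus strand), chr9:107615638-107615667 (Gnai2, minus), chr3:108109425-108109454 (Gnai3, minus), chr8:93967023-93967052 and chr8:93956220-93956249 (the alternative ends of Gnao1, plus), chr10:75015180-75015209 (Gnaz, plus), chr2:174346356-174346385 (Gnas, plus) and chr19:16383362-16383391 (Gnaq, plus).
Gnai1: aagaataacctaaaagacTGTggtctcttc
Gnai2: aagaacaacctgaaggacTGTggcctcttc
Gnai3: aaaaacaacttaaaggaaTGTgggctttat
Gnao1, distal end: gccaacaatctccggggcTGCggcttgtac
Gnao1, proximal end: gccaaaaacctacggggcTGTggactctac
Gnaz: cagaacaatctcaagtacATCggcctttgc
Gnas: cgcatgcatctccgccaaTACgagctgctc
Gnaq: cagctgaacctgaaggagTACaatctggtc
Compared base by base with Gnai2, 26 of 30 bases were equal in Gnai1, 22 in Gnai3, 18 and 20 in the Gnao1 ends, 21 in Gnaz, 18 in Gnaq and 11 in Gnas. The cysteine codon was present in Gnai1, Gnai2, Gnai3 and both forms of Gnao1, and not in Gnaz, Gnas or Gnaq. GENCODE also lists Gnas transcripts with other coding ends, not shown here, which lack the cysteine codon as well. The tables are per gene, so the forms of Gnao1 and of Gnas were not told apart in the values below.

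Levels are given in TPM, a transcript abundance that the authors scaled by length to the same total in each library. Of the 72 genes, 46 had at least 1 TPM in all 3 NSC libraries, 44 in all 3 D2 libraries, and 47 in either state. The most abundant was Gnas, the gene of the Gs alpha subunit, at 1326 to 1720 TPM in NSC and 1774 to 2252 TPM in D2, all forms of the gene together. Gnb2, Gnai2, Gnb1 and Gng5 came next. By contrast the 2 arrestins together held 80.9 to 94.6 TPM over the 6 libraries, and all adenylyl cyclases together 97.5 to 104 TPM in NSC and 124 to 130.3 TPM in D2. Of the 72, 23 were too low to test, with a mean under 10 counts per library. Of these, 6 (Gna15, Gnat3, Gng13, Rgs1, Rgs18 and Rgs21) had 0 counts everywhere, which allows up to 0.0493 CPM over the 6 libraries (3 counts of the pooled total). Another 6 had 1 to 3 counts in all, and the remaining 11 had at most 46 counts summed over the libraries; the sensory subunits Gnat1, Gnat2 and Gngt1 are among these 23.

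**Figure D1:**
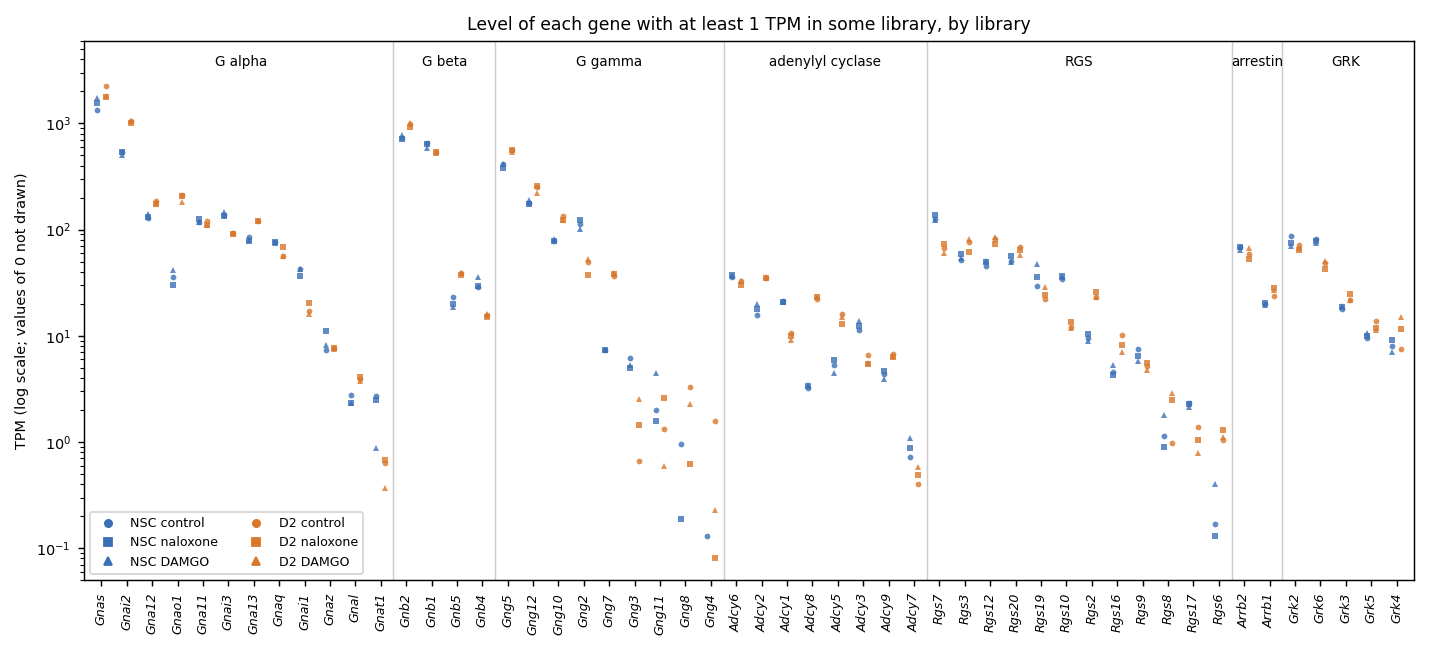
Level of each gene that reached 1 TPM in at least 1 library, in TPM on a log axis, grouped by role; blue points are NSC libraries and orange points D2 libraries, with a shape per ligand. Gnas lies highest, at 1326 to 2252 TPM, and the 3 libraries of a state lie close together for most genes, while Gnao1, Adcy8 and Gng7 have all D2 points far above all NSC points.

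The labelled cell type was checked against marker lists. Markers said to rise or fall passed the test of D2 against NSC described below. By that test 40.0% of all genes rose and 39.8% fell. All 9 stem and progenitor markers were present, with summed levels of 10812 to 11089 TPM in NSC and 11299 to 12182 TPM in D2, most of it Fabp7 and Vim. Of these 6 rose and 3 fell. The proliferation marker Mki67 fell from a mean of 328 to 6.77 TPM. Falls were also seen in the stem cell filament gene Nes (668 to 147 TPM) and Vim (4330.5 to 2218 TPM). Means rose for Fabp7 (5178 to 8660.5 TPM), Sox2 (343 to 533 TPM) and Msi1 (45.6 to 146 TPM). The other rises were Sox1 (21.5 to 48.5 TPM), Pax6 (38.2 to 53.7 TPM) and Prom1 (4.57 to 7.07 TPM). Astrocyte markers rose in 8 of 8 (summed 549 to 574 TPM in NSC, 3470 to 3604 TPM in D2). Oligodendrocyte lineage markers rose in 8 of the 9 tested and fell in 1 (3145 to 3283 against 5635 to 6186 TPM). Most of that sum was Olig1 and Olig2 in both states. Of 7 tested neuron markers 3 rose and 2 fell (568 to 578 against 659 to 731 TPM), with Slc17a6 at 0. Most of the neuron sum was Map2, which did not pass, at means of 524 TPM in NSC and 518 TPM in D2. Microglia markers summed to at most 1.95 TPM and endothelial markers to at most 2.38 TPM, with Cx3cr1 and Cldn5 at 0. Fibroblast and mural markers summed to 1.08 to 6.09 TPM in NSC and 10.7 to 19.1 TPM in D2, and ependymal markers to 5.18 to 6.71 and 21.7 to 24.8 TPM, with Pifo at 0. The part that changed glial or neuronal shares have in the results below was not tested. In such bulk libraries fewer cells of a type and less RNA per cell cannot be told apart.

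D2 differed from NSC by small steps in most members and by large ones in a few, chiefly Gnao1, Adcy8 and Gng7. State was compared over the 3 ligand conditions with state and ligand as additive terms (edgeR's quasi-likelihood test, Benjamini-Hochberg adjusted p under 0.05). Of the 49 members tested 25 rose in D2, where 40.0% of all 13216 genes tested rose, and 17 fell, where 39.8% of all genes fell, so calls were nearly as common among all genes (79.8%). The median log2 fold change was 0.28 among these members and 0.00145 among all genes. Changes of at least 2-fold were less frequent: 6 rose (Rgs6, Adcy8, Gnao1, Gng7, Adcy5 and Gnai2; background 15.9%) and 6 fell (Rgs17, Gng3, Rgs10, Gnai1, Adcy1 and Adcy3; background 18.0%). For 41 of the 42 called members the TPM values of the 3 D2 libraries did not overlap those of the 3 NSC libraries. Arrb2 was the exception. Of all 49 members tested, called or not, 42 did not overlap, beside 79.0% of all genes tested. All 42 called members had the same sign in the control, naloxone and DAMGO pairs by normalised counts. The calls were made from these same pairs, so the equal signs largely follow from the calls and add no support. In TPM the D2 to NSC ratio of Arrb2 was 0.875, 0.771 and 1.06, so its DAMGO pair went the other way. The other 7 tested members did not pass: Gna11, Gnaz, Rgs8, Rgs9, Grk1, Grk2 and Grk4.

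**Figure D2:**
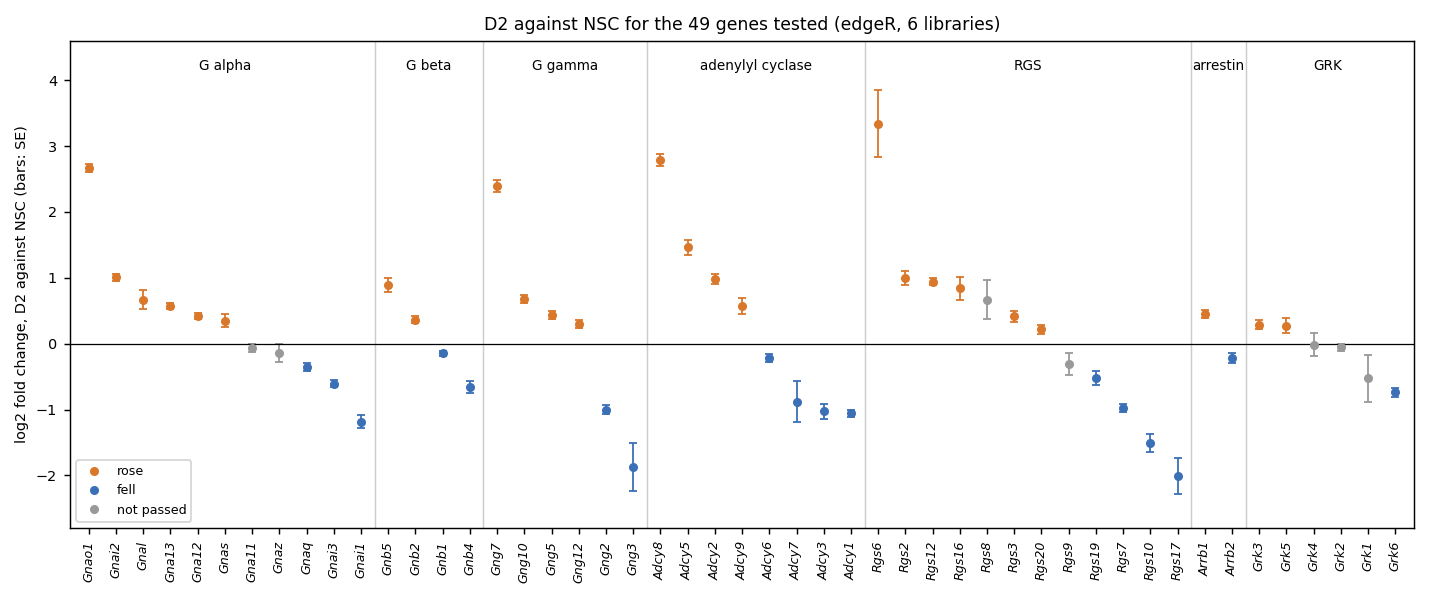
Log2 fold change of D2 against NSC for each of the 49 tested genes, with the standard error as bars, grouped by role and ordered within it; orange rose, blue fell and grey did not pass the test. Every role holds genes that rose and genes that fell, and the largest rises are Rgs6, Adcy8, Gnao1 and Gng7 at 2.40 to 3.34.

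Among the inhibitory Gi/o/z alpha subunits, Gnai2 and Gnao1 rose while Gnai1 and Gnai3 fell. Gnai2, the main subunit of the class in these cells, was at 537, 535 and 509 TPM in NSC (control, naloxone, DAMGO) and 1058, 1014 and 1043 TPM in D2. Every D2 library lay near 2 times the NSC level, a log2 fold change of 1.01 (SE 0.05, adjusted p = 1.41e-09). Gnao1 encodes Go alpha, the abundant alpha subunit of brain membranes; it was at 36.1, 30.1 and 42.1 TPM in NSC and 211, 206 and 183 TPM in D2. The groups were far apart and the log2 fold change was 2.67 (SE 0.07, adjusted p = 5.63e-12), from 291 to 2044 counts per library. Gnai1 was at 42.3, 36.6 and 42.2 TPM in NSC and 17.1, 20.6 and 16.1 TPM in D2, and fell by 1.18 on the log2 scale (SE 0.10, adjusted p = 2.82e-07). Gnai3 was at 137, 134 and 146 TPM in NSC and 93.3, 90.6 and 92.5 TPM in D2, and fell by 0.60 (SE 0.05, adjusted p = 3.56e-07). Gnaz, the toxin-resistant subunit, overlapped between states at 7.34 to 11.02 and 7.54 to 7.69 TPM and did not pass (log2 fold change -0.14, SE 0.14, adjusted p = 0.35).

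The class as a whole went from 754 ± 7.53 to 1356 ± 26.8 TPM (mean ± SD over the 3 ligand conditions, which are not replicates), a ratio of 1.80. Gnai2 made up 69.9% of it in NSC and 76.6% in D2, and Gnao1 4.79% and 14.7%. Gnai3 went from 18.5% to 6.79% and Gnai1 from 5.35% to 1.32%. In TPM the order after Gnai2 was Gnai3, Gnai1, Gnao1 in NSC, with Gnai1 and Gnao1 overlapping at 36.6 to 42.3 and 30.1 to 42.1 TPM, and Gnao1, Gnai3, Gnai1 in D2, without overlap.

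**Figure D3:**
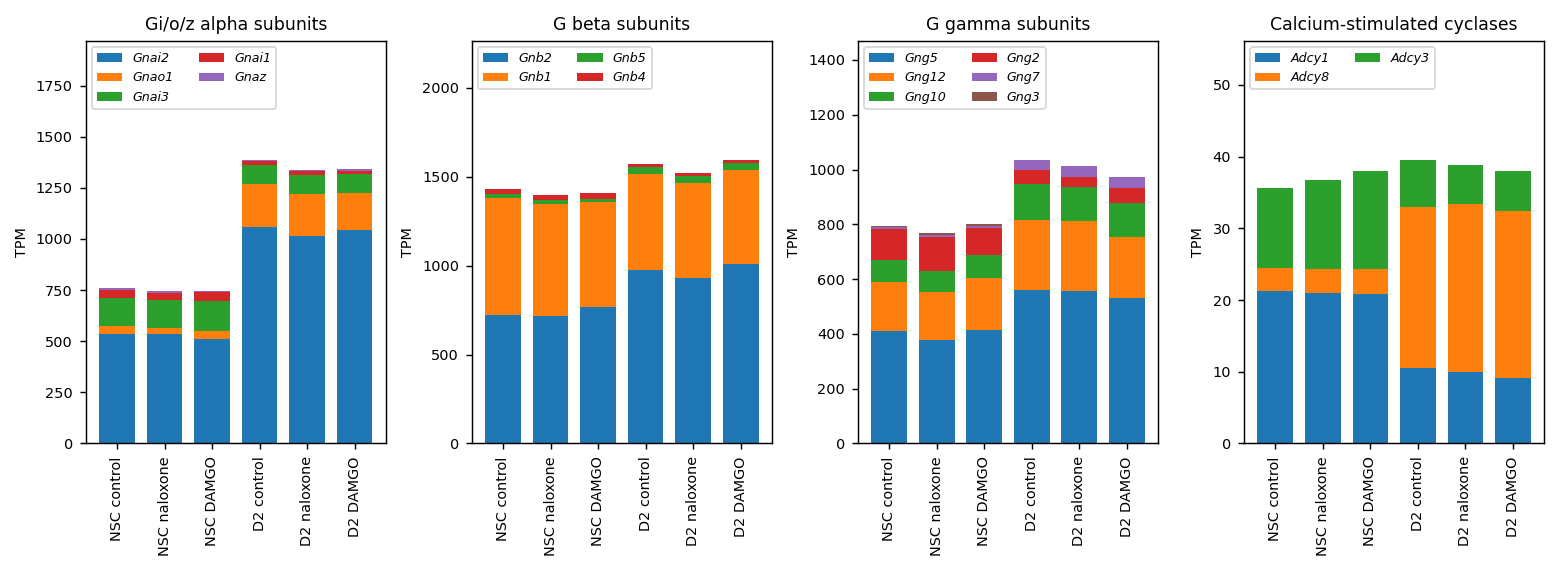
Summed TPM per library of the Gi/o/z alpha subunits, G beta subunits, G gamma subunits and calcium-stimulated adenylyl cyclases, stacked by gene (genes over 5 TPM in some library). The Gi/o/z total lies at 749 to 762 TPM in NSC and 1340 to 1387 TPM in D2; the cyclase total lies at 35.7 to 39.5 TPM throughout, with Adcy8 the largest part in D2.

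The other alpha classes moved less. Gna12 and Gna13, which form the G12/13 class, both rose: Gna12 from 128, 131 and 139 TPM to 184, 174 and 178 TPM (log2 fold change 0.42, SE 0.05), and Gna13 from 84.95, 78.3 and 79.2 TPM to 120.4, 122 and 119 TPM (0.57, SE 0.05). In neither did the states overlap. Gnaq, which activates phospholipase C beta, was at 75.4 to 76.6 TPM in NSC and 56.2 to 68.6 TPM in D2 and fell by 0.35 on the log2 scale (SE 0.06, adjusted p = 0.000236). Its close relative Gna11 overlapped at 117 to 125 and 112 to 121 TPM (-0.06, SE 0.06, adjusted p = 0.337). Gnal, the olfactory and striatal relative of Gs alpha, was low, at 2.33 to 2.75 TPM in NSC and 3.72 to 4.12 TPM in D2, and rose by a log2 fold change of 0.67 (SE 0.14, adjusted p = 0.000995).

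Gnas rose by 0.35 (SE 0.10, adjusted p = 0.00612), but its size differed between ligand conditions. The TPM values were 1326, 1539.9 and 1719.5 in NSC (control, naloxone, DAMGO) and 2252, 1774 and 1806 in D2. The lowest NSC and the highest D2 library were both controls, so the ratio of D2 to NSC was 1.70 in control, 1.15 with naloxone and 1.05 with DAMGO. Of 9878 genes with at least 50 counts in every library, 2.10% had a log2 state difference, by normalised counts, that varied as much over the 3 conditions. The call was lost without the NSC control library (log2 fold change 0.13, adjusted p = 0.0803), without the D2 control library (0.14, adjusted p = 0.0508) and in DESeq2 (0.35, adjusted p = 0.137).

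Reads of this locus are divided between overlapping genes. Gnas spans chr2:174284320-174346744 on the plus strand, and Gm20721, a gene model annotated as protein coding, lies at chr2:174330319-174346712 on the minus strand with exons that overlap those of Gnas. The kit does not mark strand, so reads in the overlapping exons cannot be told apart. Gm20721 was listed at 406, 235 and 80.1 TPM in NSC and 70.8, 368 and 316 TPM in D2, highest where Gnas was lowest within each state. The antisense gene Nespas, at chr2:174281237-174295436, was at 0.36 to 2.37 TPM. Summed over the 3 genes the values were 1735, 1777 and 1801 TPM in NSC and 2323, 2142 and 2121 TPM in D2, without overlap between states. With their counts added together, an alternative chosen after the values were seen, the log2 fold change was 0.32 (SE 0.05, edgeR adjusted p = 0.000122).

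**Figure D4:**
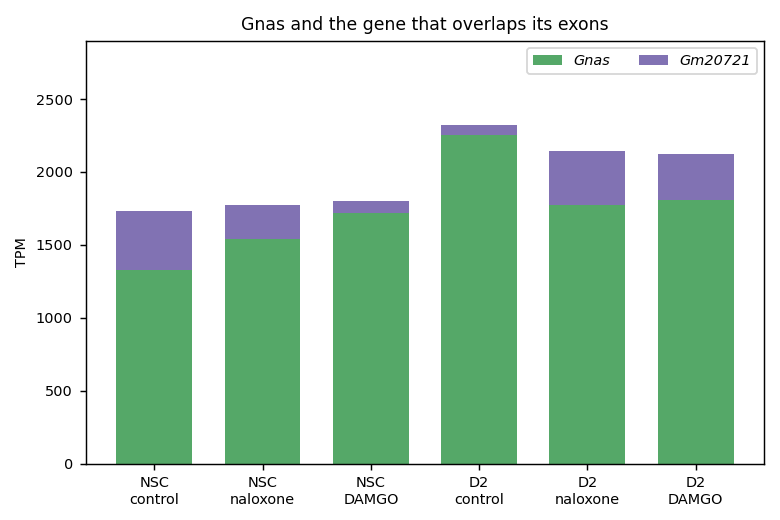
TPM of Gnas and of Gm20721, the gene on the other strand that shares exons with it, stacked for each of the 6 libraries. The Gm20721 part is 406 TPM in the NSC control and 70.8 TPM in the D2 control, and the stacked total varies less within a state than Gnas alone.

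Both common beta subunits were abundant and moved apart slightly. Gnb2 was at 721, 716 and 769 TPM in NSC and 978, 933 and 1011 TPM in D2, a log2 fold change of 0.37 (SE 0.05, adjusted p = 1.85e-05). Gnb1 was at 659, 633 and 587 TPM in NSC and 538, 535 and 529 TPM in D2, and fell by 0.15 (SE 0.04, adjusted p = 0.00724). The Gnb2 share of all beta transcripts went from 52.0% to 62.3% and that of Gnb1 from 44.3% to 34.2%. Gnb4 fell (29.1 to 36.1 TPM in NSC, 15.0 to 16.0 TPM in D2). Gnb5, the atypical beta subunit that pairs with R7 RGS proteins, rose from 23.2, 19.8 and 18.8 TPM to 39.2, 37.2 and 39.3 TPM (log2 fold change 0.89, SE 0.11, adjusted p = 1.39e-05).

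The largest change among G gamma subunits was that of Gng7, which with Golf and Adcy5 carries dopamine and adenosine signals in the striatum. Gng7 was at 7.38, 7.29 and 7.38 TPM in NSC and 36.5, 38.5 and 39.3 TPM in D2, each state in a narrow band (log2 fold change 2.40, SE 0.09, adjusted p = 1.36e-10). Gng2 went the other way, from 114, 124 and 102 TPM to 49.5, 37.8 and 52.9 TPM, and fell by 1.00 on the log2 scale (SE 0.07, adjusted p = 3.99e-08). Gng3, a neuronal gamma subunit, was at 4.94 to 6.15 TPM in NSC and 0.66, 1.43 and 2.56 TPM in D2, from 5.05 to 17.1 counts, and fell by 1.87 (SE 0.37, adjusted p = 0.000526). It shares exons on the other strand with the more abundant Bscl2, and reads in the overlap cannot be told apart. Bscl2 was at 24.8 to 27.3 TPM in NSC and 38.7 to 41.2 TPM in D2. The abundant Gng5, Gng12 and Gng10 rose by log2 fold changes of 0.43, 0.30 and 0.68. Gng5 held 50.7% of gamma transcripts in NSC and 54.4% in D2, Gng2 14.3% and 4.62%, and Gng7 0.930% and 3.77%. In CPM, read counts scaled to library size without a correction for length, Gng12 led instead (52.5% and 52.6%) and Gng5 held 18.3% and 20.2%.

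Among adenylyl cyclases Adcy8 rose while the other calcium-stimulated isoforms, Adcy1 and Adcy3, fell. Adcy8 was at 3.21, 3.35 and 3.42 TPM in NSC and 22.4, 23.4 and 23.4 TPM in D2 (log2 fold change 2.78, SE 0.09, adjusted p = 5.25e-11). The TPM ratio of D2 to NSC was 6.99, 6.99 and 6.83 in control, naloxone and DAMGO. By normalised counts, 98.4% of 9878 genes had a log2 state difference that varied at least as much over these conditions. Its NSC libraries held 71 to 104 counts, and this percentage does not take counting error into account. Adcy1 was at 21.2, 20.97 and 20.9 TPM in NSC and 10.6, 10 and 9.10 TPM in D2, and fell by 1.06 (SE 0.06, adjusted p = 6.53e-09). Adcy3 was at 11.3, 12.5 and 13.8 TPM in NSC and 6.54, 5.47 and 5.60 TPM in D2, and fell by 1.02 (SE 0.11, adjusted p = 3.38e-06). The exons of Adcy3 overlap Cenpo on the other strand, and reads in the overlap cannot be told apart. Cenpo was at 18.1 to 19.96 TPM in NSC and 8.00 to 11.3 TPM in D2. The 3 isoforms summed to 36.8 ± 1.20 TPM in NSC and 38.8 ± 0.747 TPM in D2. Adcy8 took 9.03% of that sum in NSC and 59.4% in D2, Adcy1 57.1% and 25.5%, and Adcy3 33.9% and 15.1%. In CPM the sum went from 146 ± 4.36 to 120 ± 2.44, without overlap, and Adcy1 still held 46.3% in D2 beside 44.0% for Adcy8, so the near-level total and the order in D2 hold in TPM only.

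The isoforms inhibited by Gi and calcium split as well. Adcy5 was at 5.29, 5.97 and 4.51 TPM in NSC and 16.0, 13.1 and 15.1 TPM in D2 (log2 fold change 1.46, SE 0.11, adjusted p = 1.48e-07). Adcy6, the most abundant cyclase of NSC in TPM, was at 35.8 to 37.1 TPM there and 30.0 to 33.0 TPM in D2. It fell by 0.21 (SE 0.06, adjusted p = 0.00642). Adcy5 thus went from 12.5% to 31.6% of that pair. Adcy2, which Gs and beta-gamma activate together, was at 15.6, 18.0 and 19.8 TPM in NSC and 35.1, 35.2 and 35.8 TPM in D2 (log2 fold change 0.99, SE 0.08, adjusted p = 1.3e-07). Its relative Adcy7 stayed at or under 1.10 TPM, and its fall by 0.88 rested on 11 to 32 counts and was lost in several alternatives. Adcy9 rose by a log2 fold change of 0.57 (SE 0.13). With 4 cyclases up and 4 down (40.0% and 39.8% of all genes), all cyclase transcripts together went from 102 ± 3.95 to 128 ± 3.32 TPM, a ratio of 1.25. In CPM they went from 309 ± 9.67 to 337 ± 12.5, a ratio of 1.09, so the size of the rise depends on the scale.

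Of the 12 RGS genes tested 6 rose, 4 fell and 2 did not pass, where 40.0% of all genes rose and 39.8% fell. In the R7 class, whose members bind Gnb5 and act on Gi/o, Rgs7 was the most abundant RGS gene of NSC. It was at 126, 137 and 123 TPM there and 67.2, 73.2 and 60.1 TPM in D2, without overlap, and fell by 0.98 (SE 0.06, adjusted p = 9.98e-09). The R7 total went from 135 ± 7.67 to 73.3 ± 7.09 TPM, opposite in direction to Gnb5. Rgs6 had the largest fitted rise (log2 fold change 3.34, SE 0.51, adjusted p = 6.82e-05) at very low level: 3, 1 and 2 counts in NSC against 17, 15 and 23 in D2. The pooled ratio was 11.1 with an exact binomial 95% interval of 4.77 to 31.4, which covers counting error only; the mean TPM was 0.233 in NSC and 1.15 in D2, a smaller ratio. Rgs9 lay at 5.77 to 7.45 TPM in NSC and 4.76 to 5.54 TPM in D2 and did not pass (adjusted p = 0.103).

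In the R12 class Rgs12 and Rgs10 parted. Rgs12, a large scaffold with Ras-binding domains, was at 45.6, 49.1 and 50.4 TPM in NSC and 81.0, 72.8 and 85.5 TPM in D2 (log2 fold change 0.94, SE 0.05, adjusted p = 7.93e-09). Rgs10, a small protein with little beyond its RGS domain, was at 34.4, 36.8 and 35.6 TPM in NSC and 12.1, 13.6 and 11.8 TPM in D2, and fell by 1.51 (SE 0.14, adjusted p = 9.07e-07). Rgs12 thereby went from 57.6% to 86.4% of the class, whose total was 84.0 ± 3.44 TPM in NSC and 92.3 ± 5.48 TPM in D2. In CPM Rgs12 went from 86.3% to 97.2% and the class total from 96.1 ± 1.73 to 165 ± 7.09 CPM, so these sizes depend on the scale.

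The R4 class, RGS proteins for Gq and Gi, rose in 3 of 4 tested members, where 40.0% of all genes rose. Rgs3 was at 51.4, 58.4 and 54.6 TPM in NSC and 76.8, 61.5 and 82.3 TPM in D2 (log2 fold change 0.42, SE 0.08). Rgs2, which prefers Gq and is induced by cyclic AMP in many cells, was at 9.52, 10.3 and 8.96 TPM in NSC and 23.1, 26.0 and 23.0 TPM in D2 (0.99, SE 0.11, adjusted p = 2.98e-06). Rgs16 was at 4.59, 4.30 and 5.26 TPM and 10.1, 8.17 and 7.09 TPM (0.84, SE 0.18), and Rgs8 overlapped at 0.89 to 1.78 and 0.98 to 2.90 TPM (0.67, SE 0.30, adjusted p = 0.0585). In the RZ class, which acts on Gz and other Gi subunits, Rgs20 rose slightly (0.22, SE 0.07, adjusted p = 0.0131) and Rgs19 and Rgs17 fell, by 0.53 (SE 0.11) and 2.01 (SE 0.27). Rgs17 was at 2.14 to 2.35 TPM in NSC and 0.79 to 1.38 TPM in D2, from 10 to 11 counts per D2 library. Its D2 to NSC ratio in TPM was 0.587, 0.458 and 0.369 in control, naloxone and DAMGO. That is a smaller fall than the fitted ratio of 0.248 from counts. Rgs20 shares exons on the other strand with Atp6v1h, at 94.1 to 107 TPM.

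The arrestin sum was 86.7 ± 2.86 TPM in NSC and 86.1 ± 7.39 TPM in D2, and 96.7 ± 4.81 CPM and 112 ± 0.111 CPM without the correction for length. Arrb1 rose from 19.8, 20.4 and 19.6 TPM to 23.5, 28.1 and 26.9 TPM (log2 fold change 0.45, SE 0.06, adjusted p = 2.15e-05). For Arrb2, the more abundant arrestin, counts fell by 0.22 (SE 0.07, adjusted p = 0.0167) while its TPM values overlapped, at 63.8 to 68.4 in NSC and 52.8 to 67.7 in D2, and 7 alternatives lost the call. Grk6 was at 81.4, 78.4 and 75.5 TPM in NSC and 48.7, 42.9 and 50.9 TPM in D2, and fell by 0.73 (SE 0.07, adjusted p = 7.95e-07). Grk2, the kinase that beta-gamma recruits to opioid and other receptors, did not pass, at 69.7 to 86.8 and 64.7 to 71.9 TPM (-0.05, SE 0.06, adjusted p = 0.386). Grk3 and Grk5 rose by 0.29 (SE 0.06) and 0.28 (SE 0.12, adjusted p = 0.044), the latter lost in DESeq2.

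Downstream genes, from lists chosen by function, were called in both directions. Among cyclic AMP effectors (protein kinase A, its anchors and EPAC) 7 of 22 rose and 12 fell, with a median of -0.29, where 40.0% of all genes rose and 39.8% fell: the anchor Akap12 went from 324 ± 6.65 to 10.6 ± 2.06 TPM (SD over the 3 ligand conditions; log2 fold change -4.96), the cyclic AMP-dependent Rap exchange factor Rapgef4 fell by 4.89 and the anchor Akap9 by 1.62. Of 13 tested cyclic AMP phosphodiesterases 5 rose and 4 fell. The calcium-activated Pde1b rose by a log2 fold change of 3.24 (mean 10.9 TPM in NSC and 105 TPM in D2), Pde4a rose by 1.68 and Pde3b fell by 1.26. In the CREB family and its coactivators 5 of 12 rose and 4 fell, with a median of 0.0756. The 3 largest changes were falls: Creb1 by 1.86, Atf1 by 1.54 and Sik1, a kinase of the coactivators, by 1.15. Sik1 was low, at means of 2.05 TPM in NSC and 0.917 TPM in D2. The largest rise was that of the coactivator Crtc1, by 1.02.

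Effectors of Gq and modulators of G proteins were likewise called in both directions. In the phospholipase C beta and protein kinase C list 5 of 16 rose and 8 fell (40.0% and 39.8% of all genes), with Prkcq up by 3.23 and the inositol trisphosphate receptor Itpr1 and Plcb4 down (-1.87 and -1.64). Of 19 tested modulators of G proteins 6 rose and 9 fell, against the same shares of all genes. Gpr158, a membrane partner of R7 RGS proteins, rose by 3.15, while Rgs7bp, the membrane anchor of the same complex, went from 22.6 to 3.47 TPM (-2.71), and Ccdc88a, a non-receptor activator of Gi, fell by 2.17. The only GIRK channel subunit tested, Kcnj9, rose by 1.28, at 0.32 to 1.48 TPM in NSC and 2.13 to 2.42 TPM in D2.

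Promoters were searched because Rgs2 and other genes of this pathway are known cyclic AMP targets. RefSeq promoters (GRCm38.p6, 250 bases before to 50 after the start) were present for 52 of the 72 genes, 70 promoters in all. The full cyclic AMP response element TGACGTCA was found in 0 of 70 and in 1.79% of all 32851 promoters. Its half-site TGACG, on either strand, was found for 14 of 52 genes and for 23.0% of all genes. Rgs2 held it at 2 places and is shown with the matches in capitals, as TGACG or its reverse complement CGTCA; it lies at chr1:144004100-144004399 on the minus strand.
Rgs2 promoter: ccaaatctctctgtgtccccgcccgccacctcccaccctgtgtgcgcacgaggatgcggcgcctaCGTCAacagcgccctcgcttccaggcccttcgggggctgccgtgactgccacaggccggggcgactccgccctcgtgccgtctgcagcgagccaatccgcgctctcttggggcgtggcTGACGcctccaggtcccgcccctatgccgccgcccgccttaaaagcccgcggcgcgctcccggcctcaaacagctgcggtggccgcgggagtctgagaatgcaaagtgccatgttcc
A match is a description of letters, not a site.

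Neither ligand changed a member by the test. For naloxone against control, DAMGO against control and naloxone against DAMGO, 0 of 49 members were called by edgeR (background 0.0151%, 0.0151% and 0.0303% of 13216 genes), by DESeq2 or by limma on log2(TPM + 1). At an unadjusted p under 0.05 edgeR had 0, 1 and 1 members (background 2.22%, 2.40% and 2.12%), in both cases Rgs20, DESeq2 had 0 in each (background 0.348%, 0.333% and 0.182%), and limma 0, 3 (Grk2, Rgs19 and Rgs8) and 2 (Rgs7 and Rgs19; background 3.31%, 3.62% and 3.55%). Rgs20 was lower with DAMGO by 0.24 on the log2 scale (edgeR log2 fold change -0.24, SE 0.09, adjusted p = 1.00). The sum of TPM over the Gi/o/z class was 762, 750 and 749 in NSC and 1387, 1339.6 and 1342 in D2, in the order control, naloxone and DAMGO.

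Within a state a ligand library was set beside its control, a comparison of 2 libraries without a test. Of the 41 members with at least 50 counts in every library, a difference of at least 1.25-fold was seen with naloxone for 1 in NSC (Gnaz, higher; background 2.46% of 9878 genes) and 3 in D2 (Adcy5, Gnas and Rgs16, lower; background 8.31%). With DAMGO it was seen for 2 in NSC (Adcy2 and Gnas, higher; background 2.65%) and 2 in D2 (Grk4 higher, Rgs16 lower; background 5.88%). As shares of the 41 members these are 2.44% and 7.32% with naloxone and 4.88% in each state with DAMGO. Only DAMGO in NSC is above the background, with the 2 genes Adcy2 and Gnas. With the counts of Gm20721 and Nespas added, Gnas had a DAMGO ratio of 1.07 in NSC and a naloxone ratio of 0.879 in D2. Neither reaches 1.25-fold, so both counts hold Gnas only when it is counted alone. Adcy2 by itself would be 1 of 41 with DAMGO in NSC, or 2.44%, under the background. With naloxone 7 of 41 members were higher in both states, 13 lower in both and 21 opposite; with DAMGO 10 were higher, 12 lower and 19 opposite.

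Ranked by the smaller of the ratios in NSC and D2, Grk4 led with naloxone (log2 ratios 0.30 and 0.30), from 80 to 159 counts per library, followed by Rgs19 (0.24 and 0.12) and Rgs7 (0.05 and 0.11). The lowest were Gnb5 (-0.23 and -0.10), Rgs16 (-0.09 and -0.33) and Gnb1 (-0.09 and -0.09). With DAMGO Rgs19 led (0.26 and 0.29), with count ratios of 1.20 (95% interval 0.968 to 1.49) in NSC and 1.22 (0.942 to 1.59) in D2, both including 1. Gnb4 (0.08 and 0.11) and Adcy8 (0.09 and 0.07) followed. The lowest with DAMGO were Rgs20 (-0.17 and -0.30), Gnb1 (-0.10 and -0.09) and Gnaz (-0.16 and -0.07). Naloxone and DAMGO share their control libraries, so a gene that leads in both, such as Rgs19, is not seen independently. Among these 41 members Grk4 with DAMGO in D2 had the largest single ratio, 1.62 (1.20 to 2.18), and was 0.913 (0.672 to 1.24) in NSC.

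**Figure D5:**
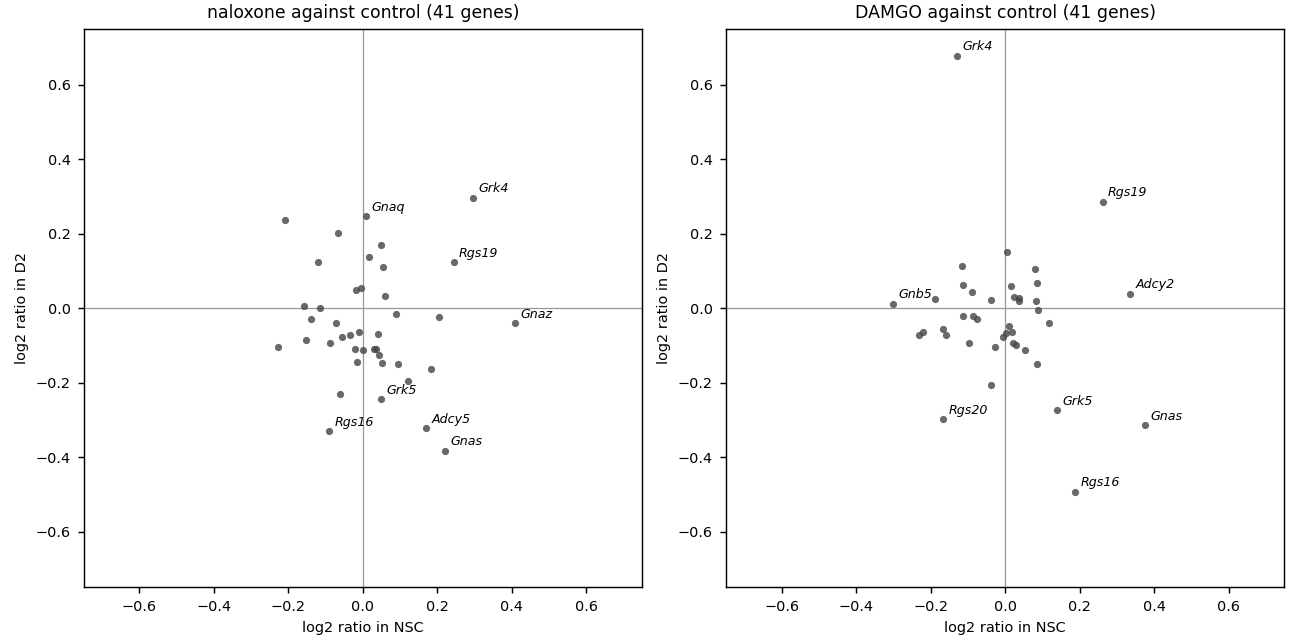
Log2 ratio of a ligand library to its control in NSC (horizontal) and in D2 (vertical) for the 41 members with at least 50 counts in every library; naloxone left, DAMGO right, a point per gene, names where either ratio reaches 0.24 in size. Most points lie within 0.2 of 0, and Gnas is higher in NSC and lower in D2 in both panels.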

How the data were processed

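RNA of 6 libraries, 1 per group, was extracted with Trizol and made into libraries with an Illumina TruSeq kit, per the labels' protocols; kits of that kind keep no strand. For each gene the authors deposited RSEM's expected counts, TPM and FPKM; FPKM was not used. Bowtie, RSEM and build mm10 are named per the submitters' processing notes; their versions and the annotation are not stated there. Expected counts split reads that map to several genes, and the deposited TPM values are scaled per transcript length to a common total. Of 29267 gene identifiers 28756 matched GENCODE M21, from which symbols, positions and coding ends were taken. The members and all gene lists were chosen with earlier results of these data known.

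Expected counts were rounded and scaled by TMM, and edgeR 4.0.16 (R 4.3.3, glmQLFit and glmQLFTest on state + ligand) was run on the 13216 genes that averaged 10 counts or more. A ligand effect that differs between states goes into the error, which has 2 residual degrees of freedom. Adjusted p-values (Benjamini-Hochberg, threshold 0.05) are over all genes tested. Totals were 8417074 to 13561237 counts, and 3 counts are 0.221 to 0.356 CPM in a library. Chi-square values per degree of freedom were 1.58 to 1.85 between NSC libraries and 3.80 to 4.02 between D2 libraries, so none was a copy. Ligand ratios within a state use TMM-normalised counts (prior count 2 on the log2 scale) with exact binomial 95% intervals, which cover counting error only. Alternatives were DESeq2 1.42.0, limma 3.58.1 on log2(TPM + 1) and log2(TPM + 0.1), library size only, upper-quartile factors, no count filter, state alone, and each library left out; the scripts were tested on simulated data.

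Named by rule were the 2 most abundant genes of each family, called genes with a log2 fold change of at least 1.5 and 1 TPM, and the 3 highest and lowest ligand ratios of each ligand. From each pathway list up to 3 called genes with the largest change and at least 1 TPM were named; 1 pathway list is not reported here. Gnai1, Gnai3, Adcy1, Adcy3, Adcy5, Adcy7, Adcy9, Gng2, Gng10, Rgs8, Grk3, Grk5, Crtc1 and genes in short counts were named after their values were seen.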

Additional observations from a re-analysis of the deposited data

Results flagged for a closer look

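Ratios of a ligand library to its control lay on opposite sides of 1 in NSC and D2, with both exact binomial 95% intervals apart from 1, for 3 members. Each is a comparison of single libraries, and the difference between the states was not tested. Over all 9878 genes with at least 50 counts in every library, 2.13% met this description with naloxone and 1.20% with DAMGO. For Gnas the naloxone ratio was 1.16 in NSC and 0.767 in D2, and the DAMGO ratio was 1.30 in NSC and 0.805 in D2. Both ligands share their control library, and those controls held the lowest and the highest Gnas level. With the counts of Gm20721 and Nespas added, the naloxone ratios were 1.04 and 0.879 and the DAMGO ratios 1.07 and 0.900, nearer to 1 in each case. Gna11 had a naloxone ratio of 1.07 in NSC and 0.901 in D2, and Gng12 a DAMGO ratio of 1.06 in NSC and 0.901 in D2.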

How the results depend on the processing

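Of the 42 members called between states 35 kept their direction and side of the threshold in all 13 settings, 0 reversed, and 7 lost the call in some setting: Adcy6, Adcy7, Arrb2, Gnas, Gnb1, Grk5 and Rgs20. Rgs8 passed with upper-quartile factors and with state alone. With a library left out, 21 to 25 members rose and 15 to 16 fell, where the groups keep 1 or more libraries per ligand and the lone one is assumed to vary like the others. Naloxone called 0 or 1 member when a library was left out: without the NSC control library Gnas was called (log2 fold change -0.40, SE 0.09, edgeR adjusted p = 0.00224). Over all genes naloxone called 2, against 1 in DESeq2, 45 with no count filter, 0 in both limma fits and 1 to 127 with a library left out. DAMGO called 2, against 0 in DESeq2, 83 with no filter, 0 in both limma fits and 4 to 160. Naloxone against DAMGO called 4, against 0 in DESeq2, 1 with library size only, 53 with no filter, 0 in both limma fits and 5 to 50. The cause was not tested. Shares within a family depend on length: from CPM in place of TPM, Adcy8 had 5.19% in NSC and 44.0% in D2, Gnai2 61.5% and 73.0%, Gnao1 3.79% in NSC, Gnb2 32.9% and 41.2%, and Gng5 18.3% and 20.2%. Rgs19 with DAMGO in NSC had a log2 ratio of 0.26 from counts and 0.67 from TPM + 1. Low counts in at least 1 state limit Rgs6, Rgs17, Gng3, Adcy7 and Grk1.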

Other observations

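Exons of 13 tested members overlap a gene on the other strand, and 10 tested members had fractional expected counts in all 6 libraries, among them Gnai2, Gna13, Arrb1, Gnal and Grk4. For Gnao1, Rgs6, Rgs8 and Rgs16 the overlapping gene was at or under 0.54 TPM in every library. Gng10 lies on the same strand as Gm20503, at 4.11 to 9.19 TPM in NSC and 1.37 to 5.38 TPM in D2, against 77.6 to 133 TPM for Gng10 itself.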
